A study of Mus musculus with 6 samples.

Results

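The matrix metalloproteinase genes that lie outside the chromosome 9 cluster around Mmp13 were examined in dental pulp of wild-type (WT) mice and of mice without MMP13. The 10 genes were chosen by symbol, as gelatinases (Mmp2 and Mmp9), membrane-type enzymes (Mmp14, Mmp15, Mmp16 and Mmp17) and other enzymes (Mmp11, Mmp19, Mmp23 and Mmp28), out of 53342 genes in the table. All 10 held enough counts to be tested, among 24534 tested genes. The RNA sequencing compared 3 WT samples (replicates 2, 4 and 5) with 3 samples of homozygous global Mmp13-/- mice (MMP13KO, replicates 1, 2 and 6). All of the mice were C57BL/6, were 3 months old and, by the study's methods, were male, and the methods describe the samples as independent biological samples. The labels give molar pulp extracted with a column kit, though the sample titles name the molar for the WT samples only. The methods instead name incisor pulp extracted with TRIzol. No batch or date of preparation is given for any sample, so a difference in tooth or preparation between the genotypes cannot be told apart from genotype.

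Matrix metalloproteinases are zinc-dependent proteases that are made as inactive proenzymes and cut collagens, gelatin, proteoglycans and many cell surface proteins. Some are activated inside the cell by proprotein convertases such as furin, others at the cell surface by membrane-type enzymes, and all are held in check by the tissue inhibitors (TIMPs). In teeth they take part in the turnover of the pulp matrix and in the processing of the dentin matrix, and the osteoclasts that resorb hard tissue are a known source of MMP9.

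Total estimated counts ran from 28442936 to 29980236 in WT and from 21561420 to 26547121 in MMP13KO, where replicate 6 was the shallowest and gave 30.55% of its counts to a single gene. Odorant and vomeronasal receptor genes, which pulp should not use and which therefore serve here as a measure of background reads, held 17.81 to 20.81 CPM (counts scaled to the size of each library) in WT and 307.7, 355.7 and 1197 CPM in MMP13KO replicates 1, 2 and 6. Across all genes the fold change also fell with the GC content of the transcript, with a Spearman correlation of -0.51 over 24492 genes, and a fit that removes this trend sample by sample (GC correction) brought it to 0.02. Fold changes are therefore given without and with the GC correction, and the part of background reads and base composition in it was not tested beyond these values. The targeted gene Mmp13 matched the labels, with 1009, 1072 and 826 normalized counts in WT replicates 2, 4 and 5 and 8.85, 30.1 and 64.0 in MMP13KO replicates 1, 2 and 6, a log2 fold change of -4.96 ± 0.46 (SE) that was -5.65 without MMP13KO replicate 6, -4.50 without MMP13KO replicate 1 and -5.53 ± 0.54 with the GC correction.

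The tissue was checked with marker genes, none of which was listed at 0 in all samples. Of 7 odontoblast markers, 2 were higher and 2 lower in MMP13KO, and of 9 pulp fibroblast and mesenchyme markers 3 were higher and 5 lower. Skeletal muscle genes summed to between 2140430 and 2598218 normalized counts in WT and between 619508 and 1354994 in MMP13KO, with 4 of 7 lower. Neutrophil markers were higher in 10 of 10, osteoclast markers in 7 of 8 and macrophage markers in 3 of 8, with none lower. Among the remaining lists, 3 of 6 endothelial markers were lower and 1 higher, 1 of 5 Schwann cell and 2 of 5 oral epithelium markers were lower, and 1 of 6 ameloblast markers was higher. These counts stand beside 27.3% of all tested genes higher and 24.3% lower at an adjusted p under 0.05. With the GC correction, odontoblast markers had 2 higher and 0 lower, and fibroblast and mesenchyme markers 3 and 3. Endothelial markers then had 2 higher and 1 lower, and Schwann cell and oral epithelium markers 1 and 0 each. Ameloblast markers had 0 and 0, and skeletal muscle genes 0 and 4. Neutrophil, osteoclast and macrophage markers were then all higher (10, 8 and 8). Of all tested genes, 23.8% were then higher and 12.9% lower. In whole tissue, fewer cells of a type and less RNA per cell cannot be told apart.

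MMP13KO pulp held less Mmp14, Mmp15, Mmp11 and Mmp28 transcript, each by over 2-fold, and to a smaller degree less Mmp23 and Mmp19, while Mmp16 was higher. The gelatinases Mmp2 and Mmp9 and the membrane-type Mmp17 did not pass the test. Counted at an adjusted p under 0.05 in edgeR's quasi-likelihood test, 6 of the 10 genes were lower and 1 was higher, against 24.3% and 27.3% of all tested genes. The over 2-fold limit left 4 lower and 0 higher, where 9.68% of all genes were lower and 20.4% were higher. In 6 genes every MMP13KO sample lay below every WT sample, and in 1 gene every MMP13KO sample lay above, compared with 29.1% and 31.8% of all genes. The median log2 fold change was -0.69 over the 10 genes and 0.10 over all genes tested.

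With the GC correction, 3 of the 10 genes remained lower (Mmp11, Mmp14 and Mmp15) and 2 were higher (Mmp2 and Mmp9), beside 12.9% of all genes lower and 23.8% higher. The median over the 10 genes was then -0.10, and that of all genes 0.22. Mmp2 and Mmp23 had a positive log2 fold change in the corrected fit and a negative value in the uncorrected fit, so that their direction depended on the correction.

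**Figure D1:**
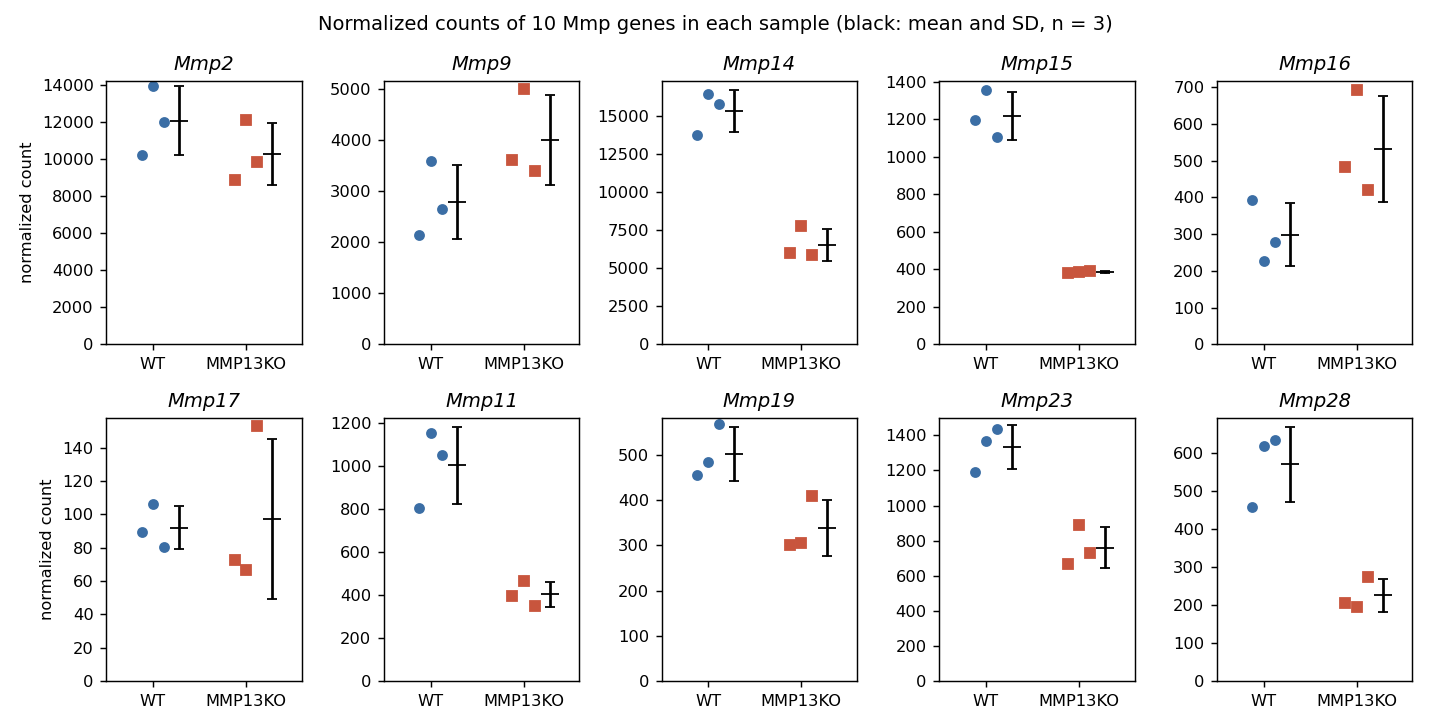
Normalized counts (vertical axes, starting at 0, with a scale of their own for each gene) of the 10 Mmp genes in the 3 WT samples (circles) and the 3 MMP13KO samples (squares), with the mean and SD in black. The genotypes are apart for Mmp14, Mmp15, Mmp16, Mmp11, Mmp19, Mmp23 and Mmp28, and overlap for Mmp2, Mmp9 and Mmp17.

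The sequences just upstream of the RefSeq start are shown for the genes that were over 2-fold lower, which were chosen for that decrease. None of the 3 genes that did not pass the test has a window to set beside them, so a motif found here has no bearing on which genes were lower. RefSeq promoter windows (build GRCm38.p6, 250 bases before to 50 after the start) matched 5 of the 10 genes, with a pair of windows for Mmp23 and none for Mmp2, Mmp9, Mmp16, Mmp17 or Mmp19. The GC box (GGGCGG, on either strand) stood in 5 of the 6 windows and in 35.7% of all 32851 windows. The AP-1 motif (TGANTCA) and the TATA box (TATAAA), searched on both strands, were in 0 of the 6 windows and in 7.81% and 13.6% of all windows. These windows were rich in GC in general, with 56.0% for Mmp14, 63.7% for Mmp28, 66.0% for Mmp15 and 67.0% for Mmp11, against a median of 52.7% over all windows. A match of letters is a description and not a site of binding. The 120 bases before the start are printed from 5′ to 3′ on the strand of the gene, with GC boxes in capitals, for Mmp14 (chr14:54431478-54431597, plus strand), Mmp15 (chr8:95352176-95352295, plus strand), Mmp11 (chr10:75932503-75932622, minus strand) and Mmp28 (chr11:83463041-83463160, minus strand).
Mmp14: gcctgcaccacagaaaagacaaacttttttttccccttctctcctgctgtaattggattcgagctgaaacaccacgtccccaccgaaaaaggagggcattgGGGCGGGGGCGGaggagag
Mmp15: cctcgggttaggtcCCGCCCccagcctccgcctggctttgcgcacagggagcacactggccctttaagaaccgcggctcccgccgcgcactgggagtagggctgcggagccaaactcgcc
Mmp11: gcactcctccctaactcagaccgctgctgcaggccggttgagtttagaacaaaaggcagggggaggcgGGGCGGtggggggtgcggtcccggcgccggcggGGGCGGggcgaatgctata
Mmp28: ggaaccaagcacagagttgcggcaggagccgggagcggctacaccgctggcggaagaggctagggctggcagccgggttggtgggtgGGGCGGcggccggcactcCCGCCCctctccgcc
The Mmp14 stretch carries 2 GC boxes side by side just before the start, the Mmp11 and Mmp28 stretches carry 2 each, and the Mmp15 box lies 106 bases before the start. The gene positions given below come from another annotation, GENCODE, whose gene ends differ from these starts. By those positions the Mmp11 stretch lies inside the gene, and the Mmp15 and Mmp28 stretches run partly into theirs.

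The gelatinases cut denatured collagen and basement membrane collagen. Mmp2 (ENSMUSG00000031740, chr8:92827291-92853420, build GRCm38) is made mainly by fibroblasts and other mesenchymal cells, and its proenzyme is activated at the cell surface by the product of Mmp14 together with TIMP2. It had 10237, 13944 and 12017 normalized counts in WT replicates 2, 4 and 5, and 8852, 12132 and 9821 in MMP13KO replicates 1, 2 and 6. The ranges overlapped, with MMP13KO replicate 2 above WT replicates 2 and 5. The log2 fold change was -0.23 ± 0.20 (adjusted p = 0.355, edgeR), and 0.50 ± 0.16 (adjusted p = 0.0345) with the GC correction. No left-out sample brought the uncorrected value past the threshold, and the range was -0.43 to -0.16.

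Mmp9 (ENSMUSG00000017737, chr2:164940780-164955850) encodes the gelatinase of neutrophils, macrophages and osteoclasts. In WT replicates 2, 4 and 5 it had 2133, 3573 and 2635 normalized counts, and MMP13KO replicates 1, 2 and 6 had 3596, 4999 and 3391. MMP13KO replicates 1 and 2 exceeded every WT sample, and MMP13KO replicate 6 lay below WT replicate 4. The log2 fold change of 0.52 ± 0.22 did not pass (adjusted p = 0.0738, edgeR). It passed with the GC correction, at 1.25 ± 0.19 (adjusted p = 0.00196), and after subtraction of background reads, at 0.68 ± 0.20 (adjusted p = 0.0203). Leaving out WT replicate 4 gave 0.70 (adjusted p = 0.0412) and leaving out MMP13KO replicate 6 gave 0.63 (adjusted p = 0.0460), both past the threshold. The value was 0.27 without MMP13KO replicate 2 and 0.29 without WT replicate 2.

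Markers were counted for 3 of the cell types that make Mmp9. Higher in MMP13KO were 10 of 10 for neutrophils, 7 of 8 for osteoclasts and 3 of 8 for macrophages, beside 27.3% of all tested genes. The osteoclast gene Itgb3 and the macrophage genes C1qa, C1qb, C1qc, Cd68 and Csf1r did not pass. Corrected for GC, all markers of the 3 lists were higher (10, 8 and 8), beside 23.8% of all tested genes. The 10 neutrophil markers summed to 3819, 7306 and 7928 normalized counts in WT and to 37599, 48108 and 19729 in MMP13KO. The 8 osteoclast markers summed to 3229, 4065 and 3960 in WT and to 9810, 15908 and 8679 in MMP13KO. For 8 macrophage markers the sums were 3823 to 4018 in WT and 5235 to 6784 in MMP13KO. Every MMP13KO sum lay above every WT sum in all 3 lists, and MMP13KO replicate 2, the sample highest in Mmp9, was also the highest in each. That replicate was likewise the highest in the odontoblast sum, at 104590, so its rank is not particular to these lists. WT replicate 4 had more Mmp9 than MMP13KO replicate 6 (3573 against 3391) but lower sums, at 7306 against 19729 for neutrophils and 4065 against 8679 for osteoclasts. Of the defining genes, Ctsk, the collagen-degrading protease of osteoclasts, had a log2 fold change of 2.37 ± 0.24 (2.55 with the GC correction), and Ly6g, a surface marker of mouse neutrophils, one of 3.26 ± 0.37 (3.39). The study's staining also placed MMP9 protein in odontoblasts, predentin and pulp, with more of it in MMP13KO molars. Of 7 odontoblast markers, 2 were higher and 2 lower, and 2 and 0 with the GC correction. The part of any of these cells in the Mmp9 values was not tested.

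The membrane-type enzymes are held at the cell surface. Mmp14 (ENSMUSG00000000957, chr14:54431612-54445364) encodes a collagenase of the cell surface that also activates proMMP2. It had 13786, 16466 and 15846 normalized counts in WT replicates 2, 4 and 5 and 6014, 7767 and 5884 in MMP13KO replicates 1, 2 and 6. The lowest WT sample was well above the highest MMP13KO sample. The fold was 2.34 lower by group means (log2 fold change -1.23 ± 0.19, adjusted p = 0.000643, edgeR). It kept its direction with the GC correction, at -0.58 ± 0.13 (adjusted p = 0.0114), and in each of the 6 fits that left out a sample, from -1.43 to -1.16.

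Mmp15 (ENSMUSG00000031790, chr8:95352268-95375080), a related transmembrane enzyme, had 1197, 1356 and 1105 normalized counts in WT and 382, 386 and 388 in MMP13KO. The MMP13KO samples were nearly equal and all of them were far below WT. This was the strongest decrease among the 10 genes in the uncorrected fit, 3.16-fold by group means with a log2 fold change of -1.66 ± 0.14 (adjusted p = 5.04e-05, edgeR). The corrected value was -0.63 ± 0.11 (adjusted p = 0.00328). It was also the gene of the 10 that was past a 2-fold change when that size itself was tested.

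Fibroblast and mesenchyme markers summed to 1929589, 2255391 and 2082341 normalized counts in WT and to 545534, 756192 and 616886 in MMP13KO, without overlap. That sum follows the collagens: Col1a1, a chain of type I collagen, had a log2 fold change of -2.16 ± 0.34, while the small proteoglycan genes Lum and Dcn had 2.99 ± 0.20 and 2.03 ± 0.19. Corrected for GC, these values were -1.18 for Col1a1, 2.45 for Lum and 0.92 for Dcn. The part of cell composition in the Mmp14 and Mmp15 values was not tested.

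Mmp16 (ENSMUSG00000028226, chr4:17852893-18119145) encodes another transmembrane enzyme of the group. It was the single gene of the 10 to be higher, with 392, 226 and 279 normalized counts in WT and 483, 694 and 419 in MMP13KO. The genotypes did not overlap, although WT replicate 2 and MMP13KO replicate 6 lay close together. The log2 fold change of 0.84 ± 0.24 (adjusted p = 0.0156, edgeR) was not past the threshold with the GC correction, at 0.33 ± 0.19 (adjusted p = 0.20). It was also not past it without WT replicate 4 (0.63, adjusted p = 0.0803), WT replicate 5 (0.71, adjusted p = 0.0666) or MMP13KO replicate 2 (0.54, adjusted p = 0.0792). Background reads estimated from the receptor genes would make up 15.7% of its count in MMP13KO replicate 6 and 2.0% to 2.34% in the other MMP13KO samples.

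Mmp17 (ENSMUSG00000029436, chr5:129584169-129611099), whose product is anchored by a lipid tail, was scarce. It had 89.4, 106 and 80.5 normalized counts in WT and 72.6, 66.7 and 153 in MMP13KO. MMP13KO replicates 1 and 2 were below every WT sample and MMP13KO replicate 6 was above every WT sample. The log2 fold change was 0.05 ± 0.32 (adjusted p = 0.909, edgeR) and became -0.40 without MMP13KO replicate 6. Background reads would make up 32.9% of the count in that replicate.

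Mmp11 (ENSMUSG00000000901, chr10:75923222-75936496) encodes stromelysin-3, an enzyme of stromal cells that furin activates inside the cell. It had 806, 1155 and 1049 normalized counts in WT and 396, 463 and 349 in MMP13KO, without overlap. The decrease was 2.49-fold by group means (log2 fold change -1.31 ± 0.18, adjusted p = 0.000315, edgeR) and passed with the GC correction as well, at -0.49 ± 0.13 (adjusted p = 0.0208). Its exons share 155 bases with Chchd10 on the other strand, which is 5.58% of them, and Chchd10 had a log2 fold change of -2.0 ± 0.22, and of -1.08 ± 0.18 with the GC correction. Whether the counting used strand is not given in the sources used here, so reads in the shared bases cannot be assigned.

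Mmp28 (ENSMUSG00000020682, chr11:83440768-83463071) encodes epilysin, a secreted enzyme with a furin motif that is known from epithelia. The WT samples had 456, 617 and 633 normalized counts and the MMP13KO samples 205, 194 and 274. All MMP13KO samples were below all WT samples, 2.54-fold by group means, with a log2 fold change of -1.35 ± 0.19 (adjusted p = 0.000421, edgeR). With the GC correction it was -0.41 ± 0.19 and did not pass (adjusted p = 0.124). It shares 12.03% of its exon bases with 1700020L24Rik on the other strand, which had a log2 fold change of -1.07 ± 0.27, and of -0.04 ± 0.27 (adjusted p = 0.914, edgeR) with the GC correction.

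Mmp23 (ENSMUSG00000029061, chr4:155650655-155653384), an enzyme first made as a membrane protein and released by cleavage, had 1192, 1370 and 1438 normalized counts in WT and 666, 889 and 727 in MMP13KO. The genotypes did not overlap and the log2 fold change was -0.81 ± 0.15 (adjusted p = 0.00195, edgeR), whereas the GC correction turned it to 0.16 ± 0.13 (adjusted p = 0.353). Scaling by total counts left the decrease short of the threshold (adjusted p = 0.0765).

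Mmp19 (ENSMUSG00000025355, chr10:128790910-128800824) encodes a secreted enzyme that cuts basement membrane proteins. It had 455, 484 and 568 normalized counts in WT and 300.1, 304 and 409.6 in MMP13KO. MMP13KO replicate 6 was the closest to WT, and the log2 fold change of -0.57 ± 0.17 (adjusted p = 0.0182, edgeR) did not pass with the GC correction (-0.36 ± 0.20, adjusted p = 0.194), with background subtraction (adjusted p = 0.0687) or with upper-quartile scaling (adjusted p = 0.171). Its exons share 22.3% of their bases with Tmem198b on the other strand, which had a log2 fold change of -0.76 ± 0.16, and of -0.25 ± 0.17 (adjusted p = 0.292) with the GC correction.

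**Figure D2:**
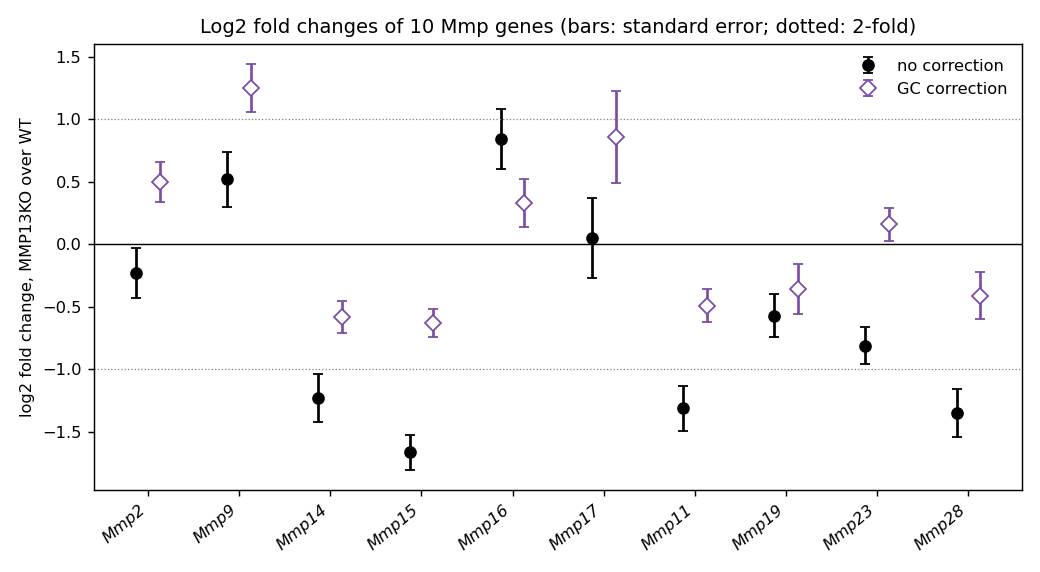
Log2 fold change of MMP13KO over WT (vertical axis) with its standard error for the 10 Mmp genes, without (filled circles) and with (open diamonds) the GC correction, from 3 samples a genotype. The correction moves 9 of the 10 values upwards and Mmp16 downwards, and leaves Mmp14, Mmp15 and Mmp11 below 0 with an adjusted p under 0.05.

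Base composition differed among the 10 genes, from 42.2% GC in the longest transcript of Mmp16 to 59.6% in that of Mmp15, with a median of 55.6%. The Spearman correlation of GC content with the log2 fold change was -0.70 over the 10 genes and -0.35 after the correction, given as a description of genes measured in the same 6 libraries. Without the correction, Mmp16, the gene lowest in GC, was the one called higher, and Mmp15, the highest in GC, fell the most. Mmp9 and Mmp17 also had positive values there without passing. With the correction Mmp16 did not pass, and Mmp2 and Mmp9 were called higher. For description, the 4 genes nearest to 55% GC, Mmp14 at 54.3%, Mmp9 at 55.2%, Mmp2 at 55.3% and Mmp17 at 55.9%, had log2 fold changes of -1.23, 0.52, -0.23 and 0.05. With the correction the values were -0.58 for Mmp14, 1.25 for Mmp9, 0.50 for Mmp2 and 0.86 for Mmp17, the last with its high part of background reads in MMP13KO replicate 6. The differences among these 4 genes were not tested.

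**Figure D3:**
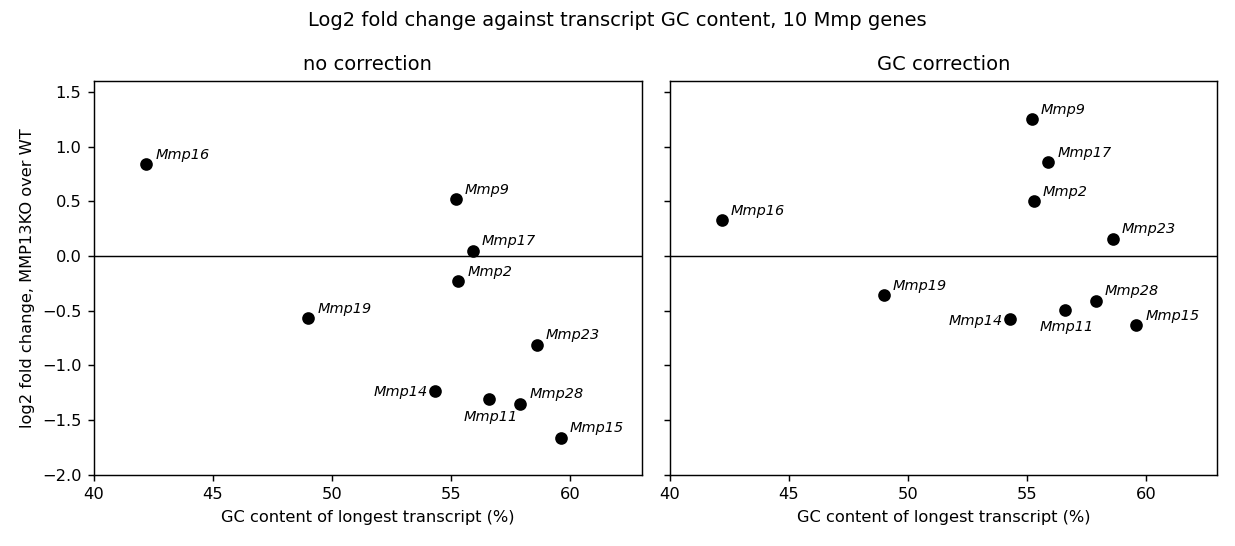
Log2 fold change of MMP13KO over WT (vertical axes) against the GC content of the longest transcript in percent (horizontal axes) for the 10 Mmp genes, without (left) and with (right) the GC correction. The values fall with GC content on the left, and on the right genes near 55% GC lie on both sides of 0.

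Levels were compared between genes per kilobase of exon, as TMM-scaled CPM per kilobase (RPKM). Mmp2 was the most abundant gene in both genotypes, at 131 ± 20.1 (SD, n = 3) in WT and 111 ± 18.3 in MMP13KO. In WT it was followed by Mmp14 at 94.2 ± 8.60, Mmp9 at 28.7 ± 7.55, Mmp23 at 20.8 ± 1.98, Mmp11 at 13.2 ± 2.35 and Mmp15 at 8.26 ± 0.858. Mmp28 at 5.37 ± 0.927, Mmp19 at 5.19 ± 0.607, Mmp16 at 1.26 ± 0.359 and Mmp17 at 0.508 ± 0.0713 came last. Among neighbours in this order, the ranges of the samples overlapped for Mmp9 and Mmp23 and for Mmp28 and Mmp19, and were apart for the others.

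The order in MMP13KO differed from the second place on. Mmp9 at 41.3 ± 9.04 and Mmp14 at 40.2 ± 6.45 overlapped there, where Mmp14 had been well above Mmp9 in WT. They were followed by Mmp23 at 11.9 ± 1.80, Mmp11 at 5.30 ± 0.758 and Mmp19 at 3.50 ± 0.642. Mmp15 at 2.61 ± 0.0195, Mmp16 at 2.24 ± 0.605 and Mmp28 at 2.12 ± 0.409 came next, where Mmp16 overlapped with Mmp15 and with Mmp28. Mmp17 was again the lowest at 0.538 ± 0.265, and the remaining neighbours in this order had ranges apart. Counted over the longest transcript instead of all merged exons, Mmp14 came before Mmp2 in WT, at 173 against 143, since its merged exons are much longer than its longest transcript. In MMP13KO that length put Mmp14 above Mmp9, at 74.0 ± 11.9 against 46.0 ± 10.1, with ranges apart, so their overlap depended on the length used.

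The summed level of the 10 genes was 308 ± 40.7 in WT and 221 ± 35.6 in MMP13KO, without overlap (exact permutation test, two-sided, p = 0.1, the smallest that 3 against 3 samples allow). WT replicate 2 at 266 and MMP13KO replicate 2 at 262 lay close together. The sum was not corrected for GC content, and whether its decrease would remain with the correction was not tested. The share of each gene in this sum does not depend on the scaling of the libraries, but like the sum it was not corrected for GC content. Shares within a sample add up to the whole, so that they are not independent of each other. Mmp14 held 31.8%, 29.1% and 31.2% of the sum in WT replicates 2, 4 and 5 and 18.9%, 18.2% and 17.6% in MMP13KO replicates 1, 2 and 6. Mmp9 held 8.28%, 10.6% and 8.73% in WT and 19.0%, 19.7% and 17.0% in MMP13KO. For Mmp2 the shares were 41.7%, 43.5% and 41.8% in WT and 49.1%, 50.3% and 51.8% in MMP13KO. A smaller part of the sum was thus Mmp14 and a larger part Mmp9 and Mmp2 in every MMP13KO sample. Shares were apart between the genotypes for 8 of the 10 genes, all but Mmp17 and Mmp19, each at the smallest exact permutation p of 0.1 (0.125 after Benjamini-Hochberg adjustment over the 10 genes), which the design cannot bring under 0.05. Samples being apart was common in this table: in normalized counts 29.1% of all tested genes lay entirely below WT in MMP13KO and 31.8% entirely above.

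**Figure D4:**
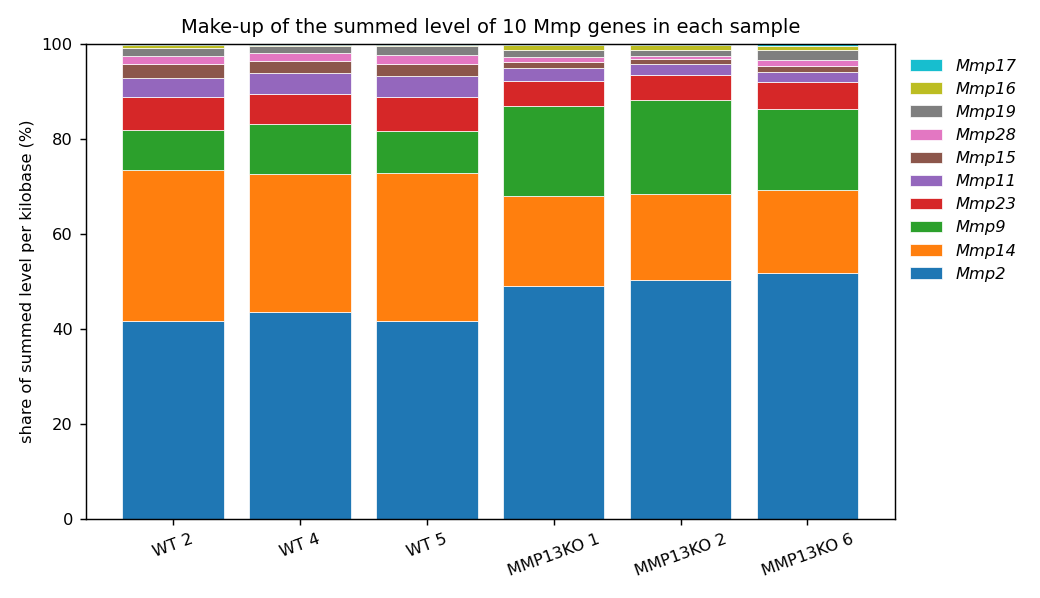
Share of each of the 10 Mmp genes in their summed level per kilobase of exon (vertical axis, percent, from 0 to 100) in each of the 6 samples. The Mmp14 band narrows from a mean of 30.7% in WT to 18.2% in MMP13KO, and the Mmp9 band widens from 9.21% to 18.6%.

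Ratios of counts within a sample are likewise free of library scaling, though not of base composition. The log2 ratio of Mmp14 to Mmp2, the activator and its substrate, was 0.43, 0.24 and 0.40 in WT and -0.56, -0.64 and -0.74 in MMP13KO. The log2 ratio of Mmp9 to Mmp14 was -2.69, -2.20 and -2.59 in WT and -0.74, -0.64 and -0.80 in MMP13KO. That of Timp2 to Mmp14, the inhibitor that bridges MMP14 and proMMP2, was -0.41, -0.22 and -0.27 in WT and 0.23, 0.14 and 0.18 in MMP13KO. The genotypes were apart in all 7 ratios computed, the others being Mmp9 to Mmp2, Mmp15 to Mmp14, Mmp16 to Mmp14 and Furin to Mmp14, each with an exact permutation p of 0.1 before and after adjustment, the smallest possible. The GC contents of Mmp14, Mmp2 and Mmp9 lie within 54.3% to 55.3%. Those of Timp2, Furin, Mmp15 and Mmp16 are 53.7%, 55.9%, 59.6% and 42.2%. No ratio was computed with the GC correction, and the part of base composition in the ratios was not tested.

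The 3 remaining Mmp genes outside the cluster, Mmp21, Mmp24 and Mmp25, were at low counts. Summed, they gave 226 to 250.1 normalized counts in WT and 201 to 301 in MMP13KO. None passed the test, with log2 fold changes of 0.63 ± 0.48, -0.35 ± 0.24 and 0.21 ± 0.25 and adjusted p-values of 0.299, 0.258 and 0.516 (edgeR). Mmp24, a membrane-type enzyme best known from the nervous system, passed without MMP13KO replicate 6, at -0.62 (adjusted p = 0.0305), and Mmp25 with the GC correction, at 0.80 ± 0.26 (adjusted p = 0.0410). Mmp21 and Mmp24 did not pass with the correction, at 1.15 ± 0.53 (adjusted p = 0.124) and 0.60 ± 0.28 (adjusted p = 0.125). Mmp24 shares 13.6% of its exon bases with BC029722 on the other strand.

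Among 12 partners of these enzymes, 3 were higher and 6 lower in MMP13KO, beside 27.3% and 24.3% of all genes, and 3 higher and 1 lower with the GC correction, beside 23.8% and 12.9%. The median log2 fold change of the partners was -0.42, beside 0.10 over all genes tested. With the GC correction it was 0.23, beside 0.22 over all genes. Among the inhibitors, Timp3, which is bound to the matrix, had 7030, 9765 and 7402 normalized counts in WT and 12585, 18871 and 18628 in MMP13KO. It rose by over 2-fold, with a log2 fold change of 1.05 ± 0.23 (adjusted p = 0.00358, edgeR) and the same value with the GC correction (1.05 ± 0.24, adjusted p = 0.0104). Timp2 had 10401, 14113 and 13114 in WT and 7032, 8578 and 6643 in MMP13KO, all lower than WT, at -0.76 ± 0.19 (adjusted p = 0.00862), but -0.15 ± 0.14 (adjusted p = 0.404) with the correction.

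Timp1, the main soluble inhibitor of MMP9, had 174, 193 and 209.3 normalized counts in WT and 291, 447 and 209.7 in MMP13KO, so that MMP13KO replicate 6 was level with WT replicate 5. Its log2 fold change of 0.72 ± 0.25 (adjusted p = 0.0354, edgeR) was not past the threshold in any fit that left out a sample except MMP13KO replicate 6, where it was 0.94 (adjusted p = 0.00622), and it was 0.33 (adjusted p = 0.246) without MMP13KO replicate 2. The other values were 0.59 without WT replicate 2, 0.69 without WT replicate 4, 0.72 without WT replicate 5 and 0.73 without MMP13KO replicate 1. With the GC correction it was 1.23 ± 0.23 (adjusted p = 0.00480). Timp4 at 0.32 ± 0.23 (adjusted p = 0.275) and Reck, a membrane-anchored inhibitor, at -0.08 ± 0.15 (adjusted p = 0.703) did not pass, nor did they with the correction, at 0.42 ± 0.27 (adjusted p = 0.261) and 0.07 ± 0.13 (adjusted p = 0.694).

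All 4 proprotein convertases were lower in MMP13KO in the uncorrected fit, with every MMP13KO sample below every WT sample, beside 24.3% of all tested genes lower and 29.1% entirely below. Furin, which activates the proenzymes of Mmp11 and Mmp14, had 5057, 6069 and 5218 normalized counts in WT and 1581, 1613 and 1525 in MMP13KO. It was the most reduced of the partners, 3.46-fold by group means, with a log2 fold change of -1.79 ± 0.15 (adjusted p = 5.21e-05, edgeR). With the GC correction it was -1.01 ± 0.10 (adjusted p = 0.000358), and the other 3 did not pass: Pcsk5 went from -0.84 ± 0.16 to -0.27 ± 0.14, and Pcsk6 and Pcsk7 turned from -0.45 ± 0.14 and -0.55 ± 0.14 to 0.33 ± 0.12 and 0.17 ± 0.09. Pcsk6 was also not past the threshold without WT replicate 5 (-0.43, adjusted p = 0.0797) or MMP13KO replicate 1 (-0.49, adjusted p = 0.0532).

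Of the remaining partners, Lrp1, the endocytic receptor that clears several of these enzymes, was lower at -1.03 ± 0.21 (adjusted p = 0.00246, edgeR) and -0.11 ± 0.14 (adjusted p = 0.567) with the GC correction. Cd44, a receptor to which MMP9 and MMP14 dock, was higher at 0.55 ± 0.16 (adjusted p = 0.0148), but did not pass with the GC correction, at 0.29 ± 0.12 (adjusted p = 0.0835), with both corrections (adjusted p = 0.0649), with total counts (adjusted p = 0.137), without a filter (adjusted p = 0.125) or in limma (adjusted p = 0.0537). It passed in only 1 of the 6 fits that left out a sample, that without MMP13KO replicate 6 (0.61, adjusted p = 0.00357). The others ranged from 0.42 without MMP13KO replicate 1 and 0.43 without WT replicate 2 to 0.50 without WT replicate 4 or MMP13KO replicate 2 and 0.54 without WT replicate 5. Bsg, the inducer of metalloproteinases, had -0.39 ± 0.18 (adjusted p = 0.0938), and 0.50 ± 0.14 (adjusted p = 0.0237) with the correction.

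**Figure D5:**
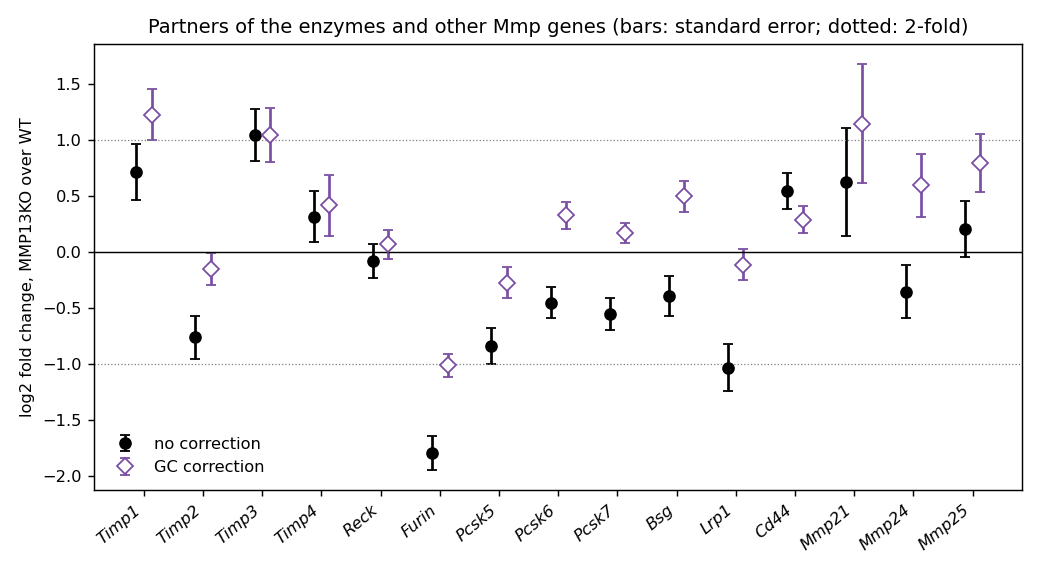
Log2 fold change of MMP13KO over WT (vertical axis) with its standard error for 12 partners of the enzymes and for Mmp21, Mmp24 and Mmp25, without (filled circles) and with (open diamonds) the GC correction, from 3 samples a genotype. Furin lies lowest and Timp3 stays near 1.05 in both fits.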

How the data were processed

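Pulp RNA of 6 samples was sequenced as paired reads on an Illumina HiSeq and analysed by the authors in Strand NGS with Ensembl genes. The submitters' processing notes name mm10 and DESeq, and the aligner, the annotation release and the use of strand in counting are not given in the sources used here. The deposited table holds estimated counts for each gene and sample, which the authors did not scale, and log2 values that the authors made with DESeq size factors and centred on the median of each gene, which were recomputed from the counts to within 2.35e-06. No column lacked a sample (0 unmapped). The columns of the deposited table that hold comparisons were not used.

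For testing with edgeR 4.0.16 (R 4.3.3), estimated counts were set to the nearest whole number. The quasi-likelihood test used TMM scaling factors, the filterByExpr filter by genotype and Benjamini-Hochberg adjustment over all 24534 genes tested. A gene was called at an adjusted p under 0.05. Normalized counts are counts divided by the effective library size relative to its mean, and fold changes are of MMP13KO over WT. Depth was 21561420 to 29980236 counts per sample. The GC correction took the deviation of each gene's log2 CPM from its mean over the samples. In each sample these deviations were fitted against the GC content of the longest transcript (loess, span 0.4, genes above a mean log2 CPM of 3). The fit was used as offsets, so a GC trend shared by all samples was not removed. Background subtraction took away the counts per kilobase over 1454 receptor genes in proportion to exon length. GENCODE M21 annotation (GRCm38) matched 99.8% of the gene identifiers, and overlaps and positions come from it. Promoter windows come from RefSeq (GRCm38.p6). Shares and ratios were compared by two-sided exact permutation tests (scipy 1.17.1). Alternatives used limma 3.58.1 on the deposited log2 values and DESeq2 1.42.0 on the rounded counts. The fits were tested on simulated data with known fold changes.

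The text names the 10 genes whatever their values, Mmp13, Mmp21, Mmp24 and Mmp25, 12 partners, the genes most correlated with Mmp2, Mmp9 and Mmp14, and genes of the marker lists. Overlapping neighbours on the other strand were added. The genes and lists were chosen with earlier results of these data known.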

Additional observations from a re-analysis of the deposited data

How the results depend on the processing

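Over 2-fold at an adjusted p under 0.05, 7381 of all genes were called, against 4666 with at least 10 counts in every sample, 14325 without a filter, 4748 with the GC correction, 3504 with background subtraction and GC correction together and 3047 in a test against a 2-fold change. At any fold, 12665 genes were called, against 19292 without a filter, 7781 with both corrections and 3047 in the test against 2-fold. Of the over 2-fold calls 67.8% were higher in MMP13KO, and 81.4% with upper-quartile factors, 77.2% with total counts, 78.6% without a filter, 84.3% with the GC correction and 78.1% against 2-fold. Taken over all genes, the log2 fold change had a median of 0.10, 0.32 with upper-quartile factors, 0.21 with total counts and 1.30 without a filter. Of the 10 genes 4 were over 2-fold lower. With the GC correction and with both corrections 0 of them stayed over 2-fold and 1 other gene, Mmp9, was over 2-fold higher, and the test against 2-fold called 1, Mmp15, also at any fold. At any fold 7 of the 10 were called, and 5 to 8 in every alternative other than the test against 2-fold.

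In the log2 fold changes, Mmp2 turned from -0.23 to 0.50 with the GC correction and 0.55 with both corrections, and Mmp23 from -0.81 to 0.16 and 0.19. Mmp9 passed the threshold at 0.72 with upper-quartile factors, 0.65 with at least 10 counts, 0.53 in DESeq2, 1.25 with the GC correction, 0.68 with background subtraction and 1.29 with both, and ranged from 0.27 to 0.70 with a sample left out. Mmp16 did not pass at 0.78 in limma, 0.33 with the GC correction and 0.29 with both, and ranged from 0.54 to 1.01 with a sample left out. Mmp17 was -0.07 without a filter, -0.07 in limma and -0.13 with background subtraction, and ranged from -0.40 to 0.20. Mmp19 did not pass at -0.35 with upper-quartile factors, -0.49 with total counts, -0.45 with at least 10 counts, -0.36 with the GC correction, -0.45 with background subtraction and -0.36 with both. Mmp23 did not pass at -0.70 with total counts, and Mmp28 at -0.41 with the GC correction and -0.46 with both. In the test against 2-fold, Mmp14 (-1.23), Mmp16 (0.84), Mmp11 (-1.31), Mmp19 (-0.57), Mmp23 (-0.81) and Mmp28 (-1.35) did not pass, and Mmp16 and Mmp19 did not reach an adjusted p of 0.01. Among other genes, Mmp24 turned to 0.60 with the GC correction and 0.41 with both, Pcsk6 to 0.33 and 0.35, Pcsk7 to 0.17 and 0.18, and Bsg to 0.50 and 0.54. Reck turned to 0.13 with upper-quartile factors, 0.05 with total counts, 0.05 with at least 10 counts, 0.07 with the GC correction, 0.06 with background subtraction and 0.09 with both, and Mmp25 ranged from -0.06 to 0.30. The cause was not tested.

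As TPM, levels in WT were 290 for Mmp2, 63.9 for Mmp9, 208 for Mmp14, 18.2 for Mmp15, 2.73 for Mmp16, 1.12 for Mmp17, 29.2 for Mmp11, 11.4 for Mmp19, 45.9 for Mmp23 and 11.9 for Mmp28, since that scale divides by another total. TPM carried no TMM factors, and the direction between genotypes depended on the scale. In MMP13KO the TPM means of Mmp9 (58.7, SD 28.15) and Mmp17 (0.655) were below WT, unlike the main fit. Mmp16 was above WT at 3.23 (SD 1.67). The remaining genes were below WT, with Mmp2 at 155 (SD 64.6). Over the longest transcript, levels were 173 for Mmp14, 2.18 for Mmp16, 16.0 for Mmp11 and 34.0 for Mmp23, since the divisor is shorter. The share of Mmp19 differed by 0.034 percentage points over the longest transcript and ranged from -0.303 to 0.126 with a sample left out. No paired analysis was possible because the genotypes share a single replicate number, which no source ties to a litter or batch. The standard errors of the scarce genes Mmp17, Mmp21, Mmp24 and Mmp25 ran from 0.24 to 0.48, and the part of depth in them was not tested.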

Other observations

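The genes whose log2 CPM values followed Mmp2, Mmp9 and Mmp14 most closely over the 6 samples were sought among 10759 well expressed genes, as a description without a test. Closest to Mmp2 were Sh2d3c (Pearson r = 0.969), Dmp1, a matrix protein of odontoblasts and osteocytes (r = 0.968), and Sost, the Wnt antagonist of osteocytes (r = 0.968). Closest to Mmp9 were the lysosomal membrane protein gene Gpr137b (r = 0.985), Atp8b1 (r = 0.979) and Il16 (r = 0.961). Mmp14 was matched by Vps18, Col5a2, a fibrillar collagen gene, and Pced1a (each r = 0.999). Within its own family it had r = 0.99 for Mmp11, r = 0.99 for Mmp23, r = 0.97 for Mmp15 and r = 0.92 for Mmp28. The values were lower for Mmp19 (r = 0.80) and Mmp2 (r = 0.70), and negative for Mmp9 (r = -0.52) and Mmp16 (r = -0.75). The log2 CPM values were not corrected for GC content. Mmp2 and Mmp9 had r = 0.20 with each other. All of these points share 6 libraries in 2 genotypes.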
